A study of Mus musculus with 4 samples.

Results

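The genes Nt5e, Entpd1, Fgl2, Lrrc32, Tgfb1, Il10, Ebi3, and Itgb8 encode mediators through which regulatory T (Treg) cells restrain other immune cells. Peaks of JunB, BATF, and IRF4 chromatin immunoprecipitation-sequencing (ChIP-seq) were taken as belonging to these loci when the peak centre lay within 50 kb of any annotated transcription start site (TSS) of 1 of the 8 genes in the mouse assembly mm9. The 8 genes, of 22380 annotated protein-coding genes, held 135 of the 103355 peaks in the 4 peak lists. Of these, 40 were JunB peaks, 20 BATF peaks, and 39 IRF4 peaks of Junb-sufficient cells, and 36 were IRF4 peaks of Junb-deficient cells.

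Each list came from 1 ChIP-seq library of mouse CD4+CD25+ splenic Treg cells on a C57BL/6 background, activated for 60 h with antibodies to CD3 and CD28 in the presence of IL-2. Antibodies to JunB, BATF, and IRF4 were used on Junb-sufficient cells, and the IRF4 antibody on Junb-deficient cells too. The sample labels give the genotypes as Foxp3cre JUNB+/+ and Foxp3cre JUNBFl/Fl, with Cre driven in Treg cells, whereas the study's methods give Junb fl/fl and Cd4Cre Junb fl/fl, in which Cre acts in all T cells that descend from CD4-expressing thymocytes. Which of the pairs holds could not be told from peak lists, nor could the loss of JunB protein be checked in them. The label field for the antibody swaps IRF4 with BATF for the Junb-sufficient libraries, which were therefore named by their titles. The study states that its ChIP-seq was repeated, and the other run was not analysed here. With 1 library per condition there was no replicate error, and no difference between genotypes could be tested.

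Treg cells act by releasing cytokines, by activating latent cytokine, and by removing metabolites that drive inflammation. Il10 encodes the anti-inflammatory cytokine IL-10, and Ebi3 the subunit that IL-27 and IL-35 share. Tgfb1 encodes TGF-beta1, which is made in a latent form. Lrrc32 encodes GARP, which holds latent TGF-beta at the Treg surface, and Itgb8 the beta8 chain of an integrin that releases the active cytokine. Entpd1 encodes CD39, which breaks down extracellular ATP, and Nt5e encodes CD73, which makes adenosine from the resulting AMP. Fgl2 encodes a fibrinogen-like protein secreted by Treg cells. JunB and BATF are AP-1 family proteins that pair with each other, and this pair can recruit IRF4 to composite AP-1 and IRF elements (AICE).

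Peaks are listed by position with the same score of 1 for every peak, so that a peak is either listed or not. Its only other measure is its place in the list, given here as a percentage of the list, where 0% is the first peak and 100% the last. The file headers do not name what the lists are ordered by, so a higher or lower place says where a peak is listed and is no measure of binding. The lists held 29659 (JunB), 13570 (BATF), 31093 (IRF4, Junb-sufficient), and 29033 (IRF4, Junb-deficient) peaks, called on 16 to 17.9 M tags. JunB peaks were 151 bp wide and needed 10 tags, whereas BATF and IRF4 peaks were 605 to 613 bp wide and needed 19. Near the Treg marker genes Foxp3, Il2ra, Ikzf2, and Ctla4, JunB peaks numbered 3, 12, 7, and 17, beside a median of 1 per coding gene. Peaks are no measure of expression. In the Junb-sufficient IRF4 list, 95% of the peaks in the first of 10 equal sections had an overlapping Junb-deficient peak and 32.1% of those in the last did, so early places mark peaks found again more often.

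The sequences below are the JunB peaks at which an IRF4 peak was listed in Junb-sufficient cells only. They are given on the plus strand of mm9, 5′ to 3′, with capitals marking exact matches on either strand to AP-1 (TGACTCA or TGAGTCA), to the cyclic AMP response element (CRE, TGACGTCA), to AICE, or to the interferon-stimulated response element (ISRE). AICE was read as the heptamer TGANTCA or TGANTAA preceded by GAAA directly, or by TTTC with any 4 bases between, and can contain an AP-1 match. ISRE was read as 2 copies of GAAA separated by any 2 bases. The Fgl2 sequence holds an ISRE match, the Itgb8 sequence an AP-1 match, and the Nt5e sequence none of these.
Nt5e, chr9:88272209-88272359: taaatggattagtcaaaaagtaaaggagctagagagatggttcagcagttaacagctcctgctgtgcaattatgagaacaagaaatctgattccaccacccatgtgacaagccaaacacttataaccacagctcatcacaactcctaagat
Fgl2, chr5:20876486-20876636: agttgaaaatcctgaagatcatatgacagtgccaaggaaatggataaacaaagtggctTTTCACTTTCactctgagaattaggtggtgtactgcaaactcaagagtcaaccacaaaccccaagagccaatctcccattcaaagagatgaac
Itgb8, chr12:120469144-120469294: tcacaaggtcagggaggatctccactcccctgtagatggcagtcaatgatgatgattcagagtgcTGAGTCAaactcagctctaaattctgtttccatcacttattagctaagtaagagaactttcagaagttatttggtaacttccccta

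The next JunB peaks overlapped peaks of both other factors and kept IRF4 in Junb-deficient cells. They were chosen, after their values were seen, because they stood high in the lists, because IRF4 moved far down its list there (Entpd1), or because they carry the AICE match (the second Il10 sequence). The Entpd1 sequence holds an AP-1 and a CRE match, both Il10 sequences an AP-1 match (within the AICE match in the second), and the Fgl2 sequence an ISRE match. The Itgb8 sequence, from the highest-placed site of the 8 loci, holds no match.
Entpd1, chr19:40714572-40714722: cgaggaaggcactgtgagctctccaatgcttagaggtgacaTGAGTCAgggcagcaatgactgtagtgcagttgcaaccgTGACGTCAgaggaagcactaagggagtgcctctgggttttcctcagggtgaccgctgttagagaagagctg
Il10, chr1:132890415-132890565: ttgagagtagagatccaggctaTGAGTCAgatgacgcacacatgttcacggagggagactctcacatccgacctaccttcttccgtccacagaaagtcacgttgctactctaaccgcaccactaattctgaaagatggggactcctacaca
Il10, chr1:132907152-132907302: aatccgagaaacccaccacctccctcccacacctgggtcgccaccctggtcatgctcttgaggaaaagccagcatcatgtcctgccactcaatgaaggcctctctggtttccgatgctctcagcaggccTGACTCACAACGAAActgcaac
Fgl2, chr5:20917234-20917384: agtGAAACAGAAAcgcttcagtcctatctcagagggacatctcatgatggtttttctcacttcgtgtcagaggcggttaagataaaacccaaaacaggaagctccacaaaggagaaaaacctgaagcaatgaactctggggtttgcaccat
Itgb8, chr12:120480293-120480443: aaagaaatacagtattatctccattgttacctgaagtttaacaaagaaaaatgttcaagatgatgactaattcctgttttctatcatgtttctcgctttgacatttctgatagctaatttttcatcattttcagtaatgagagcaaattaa

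JunB, BATF, and IRF4 were listed together at 6 of the 8 loci, most often at Fgl2 and Il10 with 4 such sites each. Of the 40 JunB peaks, 14 (35%, 95% interval 20.6 to 51.7%) overlapped a BATF peak as well as an IRF4 peak of Junb-sufficient cells, and the share over all JunB peaks within 50 kb of any coding gene was 34.1%. Another 19 (47.5%, interval 31.5 to 63.9%) overlapped neither factor, beside 47.8% over all coding genes. A further 5 overlapped IRF4 only and 2 BATF only. The shares of the 8 loci therefore lay at the background. Intervals are exact binomial ones. They cover counting error over peaks only, and peaks of 1 locus share their neighbourhood.

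The loci differed among themselves. Itgb8 had 12 JunB peaks, 9 of them without BATF or IRF4, and Il10 had 10, of which 5 stood alone. Fgl2 had 9 JunB peaks and 7 of them overlapped IRF4. Entpd1 had 4 JunB peaks beside 9 IRF4 peaks. Tgfb1 had 1 JunB peak and 5 IRF4 peaks, and Lrrc32 had no JunB or BATF peak at all. Over all coding genes, 64.8% had at least 1 JunB peak by the same rule, 35.1% had at least 1 site of all 3 factors, and 2.11% had at least 4. Here 7 of 8, 6 of 8, and 2 of 8 genes did, the limit of 4 having been set after these counts were seen. The background holds expressed and silent genes, and windows widen with the number of TSSs, from 100 kb to 223.8 kb at Entpd1. The part of either in these counts was not tested.

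**Figure D1:**
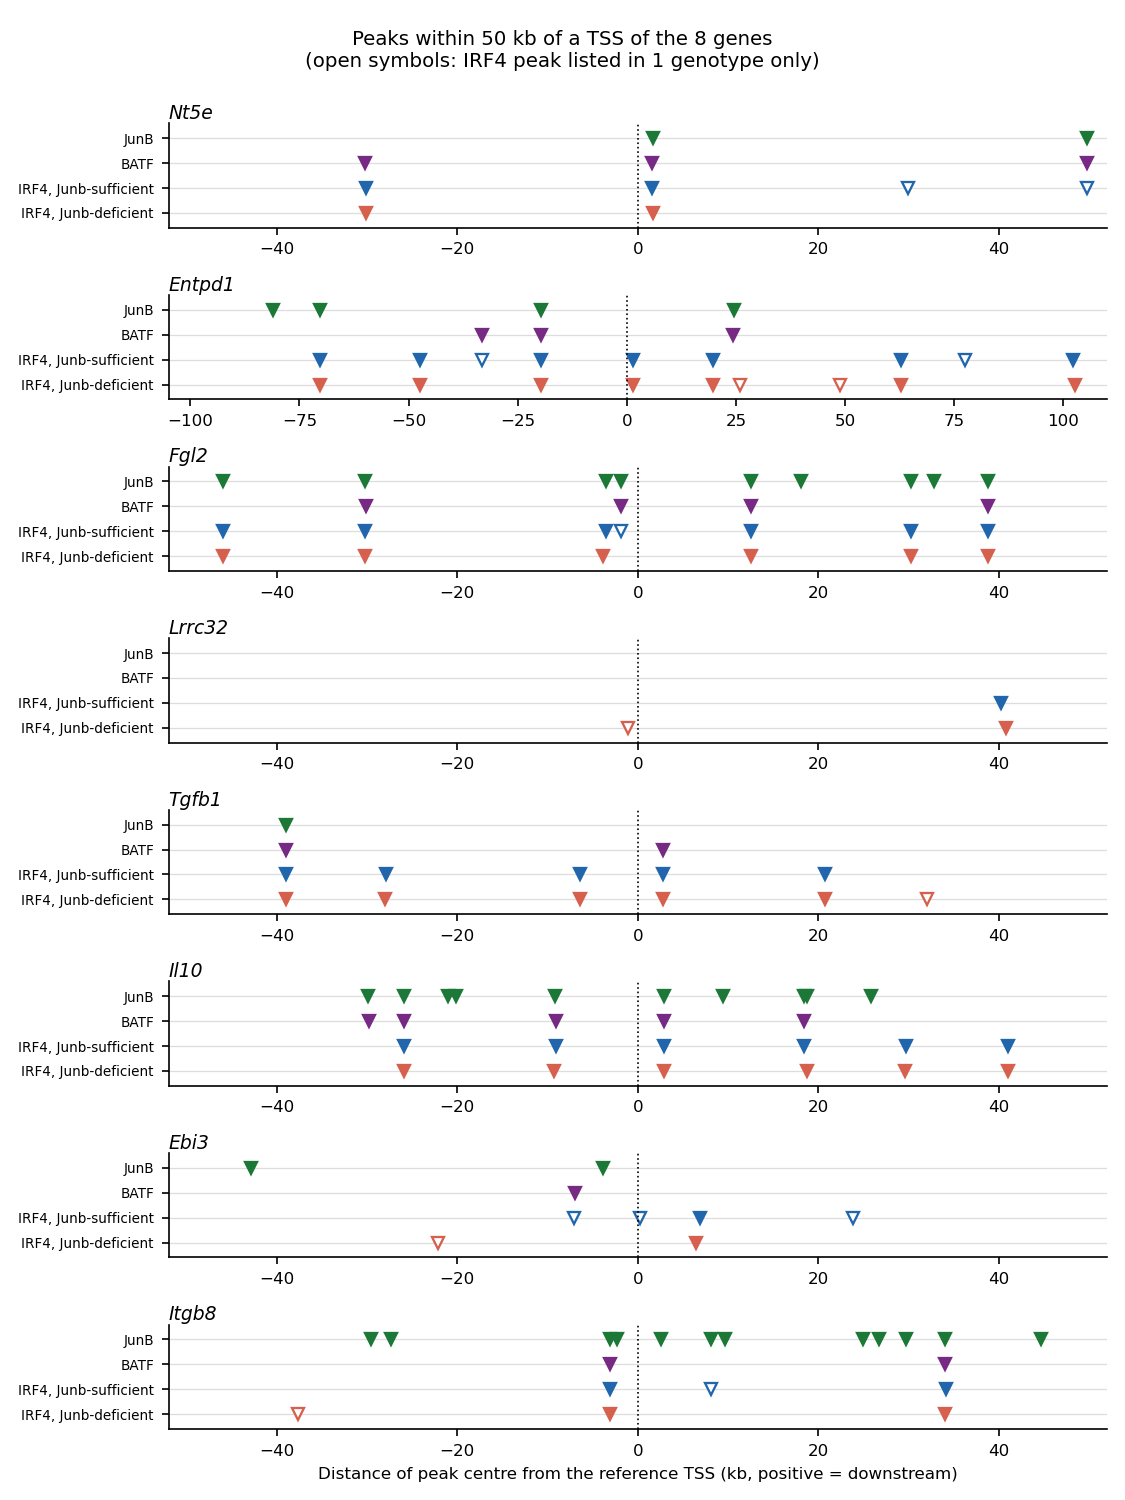
Position of each peak centre in kb from the reference TSS of its gene (dotted line, positive values downstream), in 1 panel per gene and 1 row per library; open triangles are IRF4 peaks listed in 1 genotype only. The Entpd1 axis is wider because its 11 TSSs are spread over the gene. JunB peaks crowd the Il10, Itgb8, and Fgl2 panels and are missing from the Lrrc32 panel.

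IRF4 peaks at these loci were mostly listed in both genotypes. Of the 39 IRF4 peaks of Junb-sufficient cells, 30 (76.9%, interval 60.7 to 88.9%) overlapped a Junb-deficient IRF4 peak and 9 (23.1%, interval 11.1 to 39.3%) did not, where 34.3% of the IRF4 peaks near any coding gene did not. Of the 19 IRF4 peaks at JunB peaks, 3 (15.8%, interval 3.38 to 39.6%) had no Junb-deficient counterpart, beside a background of 23.4%. Of the 20 away from JunB peaks, 6 (30%, interval 11.9 to 54.3%) had none, beside 41.1%. In the other direction, 6 of the 36 Junb-deficient peaks (16.7%, interval 6.37 to 32.8%) had no Junb-sufficient counterpart, beside 30.2%. Of these 6, 0 lay at a JunB peak, and over all coding genes 8.46% of such peaks did. Each interval included its background value, so that none of these shares set the 8 loci apart.

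**Figure D2:**
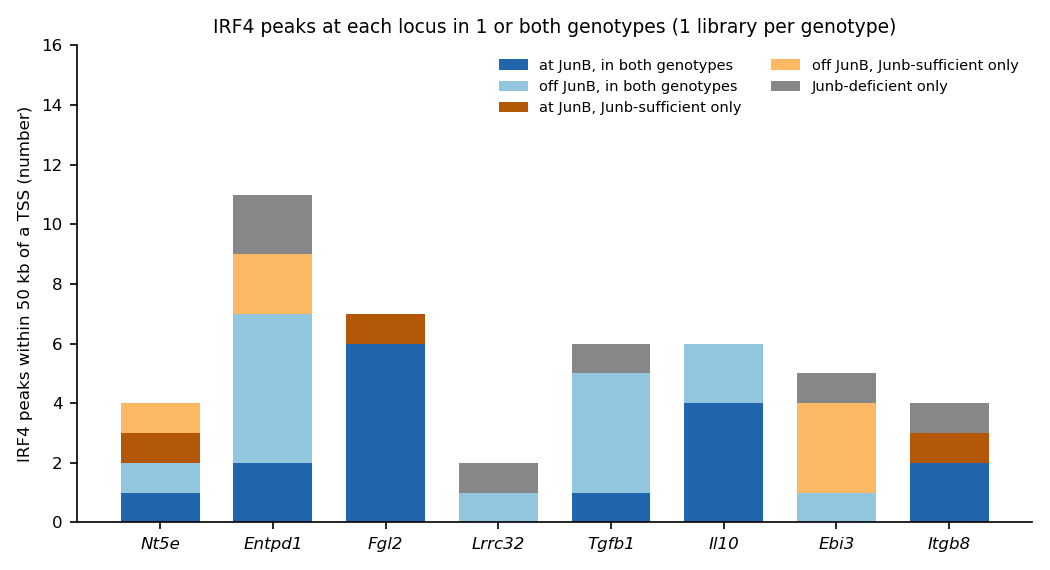
Number of IRF4 peaks within 50 kb of a TSS of each gene, stacked by whether they overlap a JunB peak and in which genotype they are listed (1 library per genotype). All 6 Il10 peaks and all 5 Junb-sufficient Tgfb1 peaks were listed in both genotypes, whereas 3 of the 4 Junb-sufficient Ebi3 peaks were not. Near any coding gene, 34.3% of the Junb-sufficient IRF4 peaks were not. These 3 Ebi3 peaks stood at 56.7%, 62.6%, and 84.9% of the list, and later places held fewer peaks found again.

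**Figure D3:**
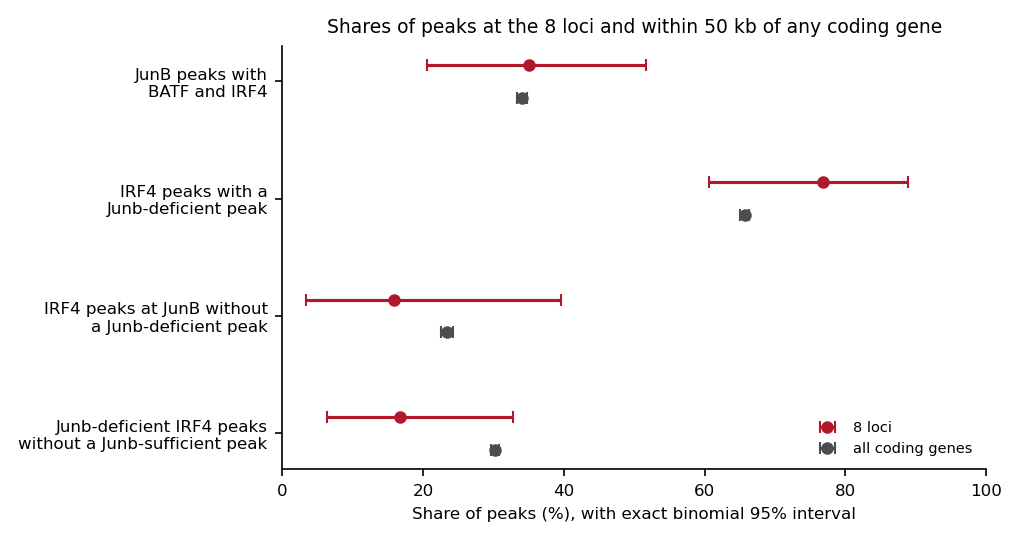
Shares of peaks in percent at the 8 loci (red) and within 50 kb of any protein-coding gene (grey), with exact binomial 95% intervals as bars. The interval of the 8 loci spans the grey value in each of the 4 comparisons.

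Among the cytokine genes, Il10 (ENSMUSG00000016529, chr1:132916422-132921551, plus strand) had 10 JunB, 5 BATF, and 6 IRF4 peaks in the Junb-sufficient lists, with 6 IRF4 peaks in the Junb-deficient list. All 6 IRF4 peaks had a counterpart in the other genotype. All 3 factors met at 4 sites, of which 3 lie outside the gene and 1 in an intron. The most distal, 25.9 kb upstream (JunB peak chr1:132890415-132890565), carried the highest-placed IRF4 peak of Junb-sufficient cells at this gene, at place 263 (0.846%), with JunB at place 1675 (5.65%, its highest here) and the Junb-deficient IRF4 peak at 2.05%. The intronic site 2.9 kb downstream of the TSS (JunB peak chr1:132919280-132919430) stood at 1.91% in Junb-sufficient and at place 294 (1.01%) in Junb-deficient cells, the highest place of any Junb-deficient peak at the 8 loci. These sites stayed within the first 3% of both IRF4 lists.

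The site 9.2 kb upstream of Il10 (JunB peak chr1:132907152-132907302) holds the only AICE match among the 14 sites of all 3 factors, and its IRF4 peak moved from 2.82% to 9.12% of the list. At the site 18.4 kb downstream (JunB peak chr1:132934792-132934942), IRF4 moved from 8.38% to 28.4%, just past 20 percentage points. The counterpart there shared 208 bp with the Junb-sufficient peak, its centre lay 401 bp away, and it also overlapped the next JunB peak (chr1:132935161-132935311). Whether it is the same binding site was not tested. A JunB peak 29.9 kb upstream overlapped BATF alone, and this BATF peak (chr1:132886280-132886892) was the highest-placed of the gene, at place 585 (4.31%). Of the 27 Il10 peaks, 25 had an Il10 TSS as their nearest coding TSS.

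Ebi3 (ENSMUSG00000003206, chr17:56092046-56096444, plus strand) had 2 JunB, 1 BATF, and 4 IRF4 peaks in the Junb-sufficient lists, with 2 IRF4 peaks in the Junb-deficient list. Neither JunB peak overlapped another factor, and no site held all 3 factors. The JunB peak nearer the gene (chr17:56088194-56088344, 3.8 kb upstream) was the higher-placed at 76% of its list. Of the 4 IRF4 peaks, 3 were without a Junb-deficient counterpart, none of them at JunB, and they stood at 56.7%, 62.6%, and 84.9% of the list. The first of these (chr17:56084682-56085294, 7.1 kb upstream) overlapped the BATF peak of the locus, which was at place 10840 (79.9%), and the second (chr17:56092085-56092697) lies in an intron 0.3 kb from the TSS. The third lies in an untranslated region of Shd. The remaining peak, chr17:56098680-56099292 in an intron of Ccdc94, was the highest-placed IRF4 peak at 43.3%. Its counterpart shared 89 bp with it, with centres 520 bp apart. A Junb-deficient peak 22.1 kb upstream (chr17:56069680-56070284, 48.5%) had no Junb-sufficient counterpart and was the highest-placed of that list. Of the 9 peaks, 1 had Ebi3 as the nearest gene, the others lying nearer Zfp119b, Ccdc94, Shd, or Rpl21-ps6.

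Tgfb1 (ENSMUSG00000002603, chr7:26472021-26490096, plus strand) had 1 JunB, 2 BATF, and 5 IRF4 peaks in the Junb-sufficient lists, with 6 IRF4 peaks in the Junb-deficient list. All 5 were listed in both genotypes. The JunB peak (chr7:26432967-26433117, place 7219, 24.3%), which overlapped both other factors, lies 39.0 kb upstream in an intron of Bckdha, and its IRF4 peak moved from place 3678 (11.8%, the highest of the gene) to 24.5%. Within Tgfb1 itself, BATF (43.2%, the higher of the BATF peaks) and IRF4 overlapped in an intron 2.8 kb downstream of the reference TSS with no JunB peak, and IRF4 stood at 12.5% and 17.7% in Junb-sufficient and Junb-deficient cells. An IRF4 peak 27.9 kb upstream (chr7:26443766-26444378), away from JunB and nearest to Exosc5, moved from 48.5% to 99.1%. Of the 8718 IRF4 peaks away from JunB that were listed in both genotypes near any coding gene, 0.826% moved as far down. The Tgfb1 peak moved farthest down of the 14 such peaks at the 8 loci, so this share too belongs to a chosen extreme. The highest-placed Junb-deficient peak (chr7:26492436-26493040) had moved the other way, from 15.5% to 5.88%, and a peak in an untranslated region of Ccdc97 (37.8%) was listed in Junb-deficient cells only.

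The genes for the handling of latent TGF-beta stood at opposite ends. Lrrc32 (ENSMUSG00000090958, chr7:105642732-105650341, plus strand) had no JunB and no BATF peak. It had 1 IRF4 peak in Junb-sufficient cells (chr7:105682598-105683210, 40.2 kb downstream, 29.6%), which shared 28 bp with a Junb-deficient peak at 13.3%, their centres being 581 bp apart. The peak closest to the gene was listed in Junb-deficient cells only (chr7:105641293-105641897, 1.1 kb upstream of the TSS), at place 4666 (16.1%). It was the highest-placed of the 6 peaks listed in Junb-deficient cells only. The nearest JunB peak lay 62.33 kb from it and the nearest Junb-sufficient IRF4 peak 41.31 kb.

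Itgb8 (ENSMUSG00000025321, chr12:120396495-120477275, minus strand) had 12 JunB, 2 BATF, and 3 IRF4 peaks in the Junb-sufficient lists, with 3 IRF4 peaks in the Junb-deficient list. All 20 peaks had Itgb8 as the nearest gene. The site 3.1 kb upstream of the TSS (JunB peak chr12:120480293-120480443) was the highest-placed of the 8 loci in each Junb-sufficient list. JunB stood at place 152 (0.512%), BATF at place 52 (0.383%), and IRF4 at place 175 (0.563%). In Junb-deficient cells the IRF4 peak was still listed, at place 2767 (9.53%), and 32.1% of the kept IRF4 peaks at JunB moved as far down.

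Itgb8 had another site of all 3 factors in an intron 34.0 kb downstream (JunB peak chr12:120443230-120443380), where IRF4 moved up, from 10.2% to 5.55%, to become the highest-placed Junb-deficient peak of the gene. The third IRF4 peak (chr12:120468895-120469507, intron, 8.1 kb downstream) overlapped a JunB peak with an AP-1 match but no BATF peak. It stood at place 9738 (31.3%) and had no Junb-deficient counterpart, the nearest Junb-deficient IRF4 peak being 11.20 kb away. A peak 37.7 kb upstream (79.5%) was listed in Junb-deficient cells only. Just outside the window, 55.7 kb upstream, lay a further site of all 3 factors (IRF4 at 27.7%) without a Junb-deficient peak.

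Of the genes for the conversion of ATP to adenosine, Entpd1 (ENSMUSG00000048120, chr19:40686856-40816092, plus strand) had 4 JunB, 3 BATF, and 9 IRF4 peaks in the Junb-sufficient lists, with 9 IRF4 peaks in the Junb-deficient list. Of the 9 Junb-sufficient IRF4 peaks, 7 had a counterpart. Only 1 site held all 3 factors, in an intron 19.6 kb from the nearest TSS (JunB peak chr19:40714572-40714722, 39%, the highest JunB place of the gene). Its IRF4 peak (chr19:40714330-40714942) moved from 34.3% to 87.2%, by 52.9 percentage points, which was the largest shift at the 8 loci. Of the 7105 IRF4 peaks at JunB listed in both genotypes near any coding gene, 2.84% moved as far down. The Entpd1 peak moved farthest down of the 16 such peaks at the 8 loci, so this share belongs to a chosen extreme. The peak was still listed.

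The highest-placed IRF4 peak of Junb-sufficient cells at Entpd1 (chr19:40663651-40664263, 25.4%) lay at a JunB peak nearest to Aldh18a1 and was at 35.3% in Junb-deficient cells. An IRF4 peak of each genotype covered an Entpd1 TSS (chr19:40686563-40687175 at 79.6% and chr19:40686560-40687164 at 77.9%), and these were the only peaks of the 135 that covered a TSS of their gene. The 2 IRF4 peaks without a counterpart lay away from JunB at 69.5% and 96.3% of the list, the first at a BATF peak (78.2%, the highest BATF place). The 2 listed in Junb-deficient cells only stood at 30.8% and 97.7%. The highest-placed Junb-deficient peak (29.5%) lay in an intron and was listed in Junb-sufficient cells at 38.7%.

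Nt5e (ENSMUSG00000032420, chr9:88222447-88266927, plus strand) had 2 JunB, 3 BATF, and 4 IRF4 peaks in the Junb-sufficient lists, with 2 IRF4 peaks in the Junb-deficient list. Both JunB peaks overlapped BATF and IRF4. At the first, in an intron 1.7 kb downstream of the TSS (JunB peak chr9:88224027-88224177), IRF4 stood at 10.1% and 11.5% of the lists, the highest IRF4 places of the gene in both genotypes, with BATF at place 2458 (18.1%, its highest). At the second, 49.8 kb downstream in an intron of Snx14 (IRF4 peak chr9:88271958-88272570), IRF4 stood at place 5920 (19%) and had no Junb-deficient counterpart, although JunB was higher there, at place 1704 (5.75%). This site is just inside the window, and its nearest TSS is that of Snx14. Just outside, at 52.7 kb, a site of all 3 factors kept IRF4 (7.91% and 12.6%). The nearest Junb-deficient IRF4 peak to the site without a counterpart lay 2.87 kb from it.

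Fgl2 (ENSMUSG00000039899, chr5:20878460-20884192, plus strand) lies within an intron of Ccdc146 and had 9 JunB, 4 BATF, and 7 IRF4 peaks in the Junb-sufficient lists, with 6 IRF4 peaks in the Junb-deficient list. All 7 IRF4 peaks lay at JunB peaks, and 6 were kept. Sites of all 3 factors were 30.2 kb upstream (JunB peak chr5:20848209-20848359), 1.9 kb upstream (chr5:20876486-20876636), 12.5 kb downstream (chr5:20890913-20891063), and 38.8 kb downstream (chr5:20917234-20917384). The last carried the highest-placed peak of every list at this gene, at place 2712 (9.14%) for JunB, 2086 (15.4%) for BATF, and 638 (2.05%) and 574 (1.98%) for IRF4 in the Junb-sufficient and Junb-deficient lists.

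The site 1.9 kb upstream of Fgl2, the nearest of these to the TSS, had no Junb-deficient IRF4 peak. There the IRF4 peak (chr5:20876276-20876888) stood at place 7302 (23.5%), BATF at 44.8%, and JunB low in its list at 88.6%. The neighbouring IRF4 peak 3.5 kb upstream of the TSS moved up in Junb-deficient cells, from 19.9% to 7.34%, with its centre 292 bp farther from the gene, 1.96 kb from the site without a counterpart. The peak caller kept peaks of that library at least 1210 bp apart, a shorter distance than this. It also required 4-fold more tags than the surrounding 10 kb, and the part of a higher-placed neighbour in the missing peak was not tested. IRF4 moved down by 25.0 percentage points at the site 12.5 kb downstream (chr5:20890711-20891323, 22.7% to 47.7%) and by 24.9 at a JunB peak 46.0 kb upstream (chr5:20832192-20832804, 63.1% to 88%). Of all kept IRF4 peaks at JunB, 14.2% moved as far down as either. Of the 26 peaks, 11 had Fgl2 as the nearest coding gene and the others Ccdc146.

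Over the 8 loci, 11 of the 16 kept IRF4 peaks at JunB (68.8%) stood lower in the Junb-deficient list, beside 60.7% near any coding gene, and 4 (25%) stood lower by 20 points or more, beside 18.2%. The median shift was 6.07 points, beside 1.98. Of the 14 kept peaks away from JunB, 5 (35.7%) stood lower, beside 43.1%, and the median shift was -3.39 points, beside -2.93. A place depends on every other peak of its list and does not measure occupancy. None of the 30 kept peaks rose by 20 points or more, beside 1982 of the 15823 kept peaks near any coding gene. A peak placed before 20% of the Junb-sufficient list could not rise that far, which held for all 4 Il10 sites of all 3 factors. Places in the Junb-sufficient list were not matched between the 8 loci and the background, for this count or for the shifts above.

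**Figure D4:**
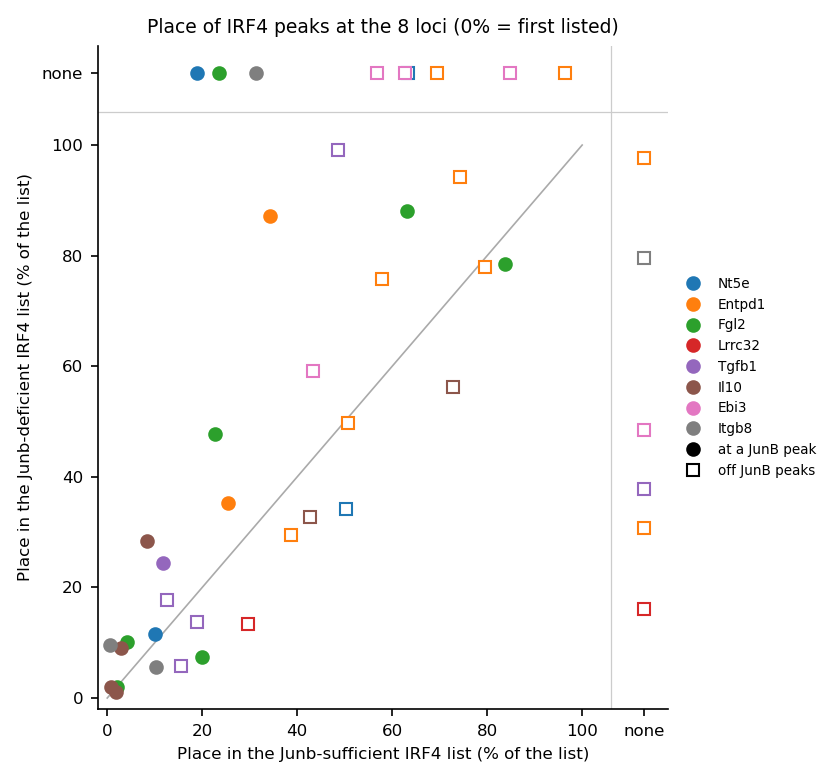
Place of each IRF4 peak of the 8 loci in the Junb-sufficient list (horizontal axis, % of the list) and the Junb-deficient list (vertical axis, % of the list); filled circles lie at JunB peaks, open squares do not, the grey line marks equal places, and "none" holds peaks listed in 1 genotype. The Entpd1 peak at 34.3% and 87.2% and the Tgfb1 peak at 48.5% and 99.1% lie farthest above the line.

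AP-1 and AICE matches were counted within 100 bp of peak centres. Of the 14 JunB peaks with both other factors, 6 (42.9%, interval 17.7 to 71.1%) held an AP-1 match, beside 42% of all such peaks near coding genes, and 1 (7.14%, interval 0.181 to 33.9%) an AICE match, beside 7.35%. Of the 19 JunB peaks without either factor, 2 (10.5%) held an AP-1 match, beside 15.2%. None of the 14 kept IRF4 peaks away from JunB did, beside 11.6%. No match says only that these letters are not in the window.

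ISRE, CRE, and an ETS-IRF composite element (EICE, GGAA and GAAA separated by any 2 bases) were added after the peaks had been examined. An ISRE match lay in 5 of the 14 sites of all 3 factors (35.7%, interval 12.8 to 64.9%), beside 8.98% of all such JunB peaks near coding genes. Of these, 3 were Fgl2 sites (30.2 kb and 1.9 kb upstream and 38.8 kb downstream), 1 the intronic Il10 site, and 1 the Itgb8 site 34.0 kb downstream. They came from 3 loci, and ISRE was 1 of 5 motifs counted over 8 kinds of peak, so the share is given as a description. The windows were those of JunB peak centres. Windows of the BATF and IRF4 peaks at the Fgl2 sites held the match too, those at the Itgb8 site did not, and those at the Il10 site differed. Of the 39 Junb-sufficient IRF4 peaks at the 8 loci, 4 (10.3%) held an ISRE match, beside 8.87% near any coding gene. A CRE match lay in 1 of the 14, at Entpd1 (7.14%), beside 0.456%, and an EICE match in 0, beside 3.1%.

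Genes that act with the 8 mediators, as partners, processing factors, or receptors, were read by the same rule, and 20 of 21 symbols matched the annotation (Nrros is a later name of Lrrc33). JunB peaks were listed at 18 of the 20, beside 64.8% of all coding genes, IRF4 peaks of Junb-sufficient cells at 19, beside 74%, and sites of all 3 factors at 13, beside 35.1%. An IRF4 peak at JunB without a Junb-deficient counterpart lay at 8, beside 16.2%. The limits given above for this background, silent genes and windows of unequal width, hold here too. A gene with more peaks also has more chances to be counted, and no share per peak was computed for these genes. Itgav, which encodes the partner chain of the beta8 integrin, had 11 JunB peaks and 6 sites of all 3 factors, and 2 of its IRF4 peaks at JunB had no counterpart. Il12a, which encodes the partner of EBI3 in IL-35, had 1 JunB and 5 IRF4 peaks with 1 site of all 3 factors. Of the receptors, Il10rb had 5 sites of all 3 factors and Il6st 4. Ada, the enzyme that removes adenosine, had no JunB or BATF peak, and Fcgr2b, a receptor for FGL2, had 1 JunB peak and no IRF4 peak.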

How the data were processed

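Splenic Treg cells were studied by ChIP-seq for JunB, BATF, and IRF4 in 4 libraries, 1 analysed here for each condition. Reads had been mapped to mm9 by the authors and peaks called with HOMER (4.8 in the submitters' processing notes) in each library, at a false discovery rate of 0.001. The deposited lists give positions and a score of 1 for every peak, so the score was not used. Positions were counted from 1. Libraries held 21.1 to 27.4 M tags, of which 4.27 to 12.76% lay in peaks, and tags per peak were not used here. Gene models were GENCODE annotations of the same assembly. Peaks sharing at least 1 bp were called overlapping. Shares carry exact (Clopper-Pearson) 95% intervals and stand beside the same share over peaks within 50 kb of any protein-coding TSS. Named peaks were those where all 3 factors met, those at JunB without a Junb-deficient IRF4 peak, the highest-placed of each gene and list, those covering a TSS, and kept IRF4 peaks that moved by 20 points or more. Peaks outside these rules were named after their values were seen. The members and lists were chosen with earlier results of these data known. Overlap and motif steps were tested on simulated data. Python 3.11.15, NumPy 2.4.6, SciPy 1.17.1, and matplotlib 3.10.9 were used. Other assays of the study were not analysed here.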

Additional observations from a re-analysis of the deposited data

How the results depend on the processing

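Of 40 recomputed shares at the 8 loci (4 shares under 10 alternatives each), 36 lay within the binomial interval of the reported value. These intervals are wide. The share of IRF4 peaks at JunB without a counterpart ranged from 15.8 to 33.3% over the 10 alternatives, all within its interval of 3.38 to 39.6%. With each list shortened to its first 13570 peaks, the share of JunB peaks overlapping both BATF and IRF4 was 61.1%. With centres within 100 bp in place of overlap, 59% of the Junb-sufficient IRF4 peaks had a Junb-deficient counterpart, and 36.1% of the Junb-deficient peaks had no Junb-sufficient one. With BATF and IRF4 exchanged as in the antibody field, the latter share was 61.1%. No share near any coding gene is given under these alternatives, so the recomputed shares cannot be set beside the backgrounds above. Leaving out each locus in turn, an alternative chosen after seeing the data, gave 31.6 to 42.9% for JunB peaks with both factors, 72.7 to 82.9% for kept IRF4 peaks, 11.8 to 20% for those at JunB without a counterpart, and 14.7 to 20% for Junb-deficient peaks without one. No paired analysis was possible because each condition had 1 library. Depth limits what an unlisted peak means: below the 10 or 19 tags a peak needed, binding was not detectable. The JunB threshold was the lower one, and JunB peaks without other factors were not adjusted for it.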
